A study of Mus musculus with 4 samples.

Results

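Loss of CtIP was set against loss of XRCC4 in activated mouse B cells by comparing the DNA joins of 2 of the 4 libraries in the study. The members were taken by genotype label. They are CtIP_KO, which held 2555 junctions, and XRCC4_KO, which held 3521, so together they hold 6076 of the 18731 junctions of the whole series. Each genotype is 1 library with no replicate. CtIP_KO is labelled CD21Cre+ CtIP C/- XRCC4 +/C, and XRCC4_KO is labelled CD21Cre+ CtIP +/- XRCC4 C/-, where C is the allele that Cre removes. The Wildtype library, with 9435 junctions, is labelled CD21Cre+ CtIP +/C XRCC4 +/C. After Cre has acted, CtIP_KO may therefore keep 1 working copy of XRCC4, XRCC4_KO 1 working copy of CtIP, and Wildtype 1 of each. The remaining library, CtIP_AA, carries a CtIP substitution on both alleles and was used only where shared reads were counted. CD21Cre acts in mature B cells, and how completely it deleted its targets could not be read from these files. All cells were splenic B cells, depleted of CD43+ cells, with preassembled IgH and IgK loci, and had 4 days of culture in 20 ng/ml IL-4 plus 1 ng/ml anti-CD40, stimuli that direct switching to IgG1 and IgE. No value here tests the B cell label itself, because the libraries hold DNA junctions and no expression.

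Class switch recombination exchanges the heavy chain constant region of an antibody. The deaminase AID starts breaks in the repetitive switch region Sμ and in one downstream of it, Sγ1 for IgG1 or Sε for IgE, and the ends are joined with the loss of the DNA between them. In the RefSeq gene order the constant genes follow one another as Ighm, Ighd, Ighg3, Ighg1, Ighg2b, Ighg2c, Ighe and Igha, so Sε lies farther from Sμ than Sγ1 does. XRCC4 works with DNA ligase IV and is needed for the last step of classical nonhomologous end joining, which leaves blunt joins or joins with little shared sequence. CtIP starts the resection of broken ends, which exposes single strands that can pair at short stretches of shared sequence, called microhomology. Without XRCC4, switching in mouse B cells is known to go on at a lower level by alternative end joining, with more microhomology.

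In this assay a primer in Sμ reads outward across each join. The Sμ part of the read is called the bait and the partner the prey. The bait is shown because every overlap described later is a stretch of these letters. It is given from the first base of the nested primer, as a consensus of reads, and lies on the minus strand of mm9 at chr12:114664790-114664909. Capitals mark the 2 AGCT motifs, at bait bases 64 to 67 and 85 to 88, which are preferred targets of AID, and the AflII site at bases 104 to 109, where unrearranged DNA was cut.
Sμ bait: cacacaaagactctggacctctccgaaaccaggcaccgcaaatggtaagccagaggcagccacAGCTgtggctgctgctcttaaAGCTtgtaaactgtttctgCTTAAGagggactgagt

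The next reads are the Sε joins with the longest overlap between bait and prey in each library, which show what microhomology looks like in these data. Up to 25 bases stand on either side, and capitals mark the overlap, the bases that both the bait and the prey alignment claim.
CtIP_KO, 11 bp: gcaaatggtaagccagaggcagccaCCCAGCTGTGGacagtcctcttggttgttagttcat
CtIP_KO, 6 bp: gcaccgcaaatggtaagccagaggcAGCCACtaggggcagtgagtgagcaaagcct
XRCC4_KO, 10 bp: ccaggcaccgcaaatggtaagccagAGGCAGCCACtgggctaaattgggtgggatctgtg
XRCC4_KO, 9 bp: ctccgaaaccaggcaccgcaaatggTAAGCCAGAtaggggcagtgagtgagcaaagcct
The prey ends of these reads lie on mm9 chromosome 12, at 114515240 on the plus strand and 114512284 on the minus strand in CtIP_KO, and at 114515232 and 114512286 on the minus strand in XRCC4_KO. The 6 bp overlap of CtIP_KO and the 9 bp overlap of XRCC4_KO thus led into nearly the same stretch of Sε from different places in the bait. These 2 reads were picked by the lowest prey position, from 4 joins of 6 bp in CtIP_KO and 2 of 9 bp in XRCC4_KO. Their nearness was not tested. The letters of the 11 bp overlap do not occur unbroken in the bait consensus, so that read holds a difference from it.

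A blunt join has neither overlap nor extra bases. The blunt Sε join nearest the median Sε position is given for each library, with the prey in capitals, at 114513740 in CtIP_KO and 114513845 in XRCC4_KO, both on the minus strand.
CtIP_KO, blunt: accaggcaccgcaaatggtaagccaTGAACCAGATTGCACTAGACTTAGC
XRCC4_KO, blunt: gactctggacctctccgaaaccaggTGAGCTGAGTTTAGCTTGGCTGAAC

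One feature of the reads differed between the libraries and stands before the results. Some reads carried 6 extra bases ahead of the primer, and the same 4 short stretches recurred in every library. In the per-junction Sε tables such reads made up 91 of 762 joins in CtIP_KO, or 11.9% (95% Wilson interval 9.83 to 14.4), and 125 of 462 in XRCC4_KO, or 27.1% (23.2 to 31.3). Among blunt joins their share was 11.5% in CtIP_KO, 25.3% in XRCC4_KO and 31.3% in Wildtype, so CtIP_KO was the lowest of the 3. Within XRCC4_KO the share of blunt joins with extra bases was 33.7% in Sε, 25.4% in Sγ1 and 18.8% in Sμ. Few junctions were shared between libraries. CtIP_KO and XRCC4_KO had 12 Sε joins with the same bait end, prey position and strand, which is 1.59% and 2.60% of their distinct Sε joins, and 4 blunt joins in common. XRCC4_KO shared 22 distinct blunt joins with Wildtype, or 5.54% of its own, and 18 of the 24 reads behind them carried the extra bases. The main results from the per-junction tables are given with and without these reads, and their part in the other results was not tested.

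Sε was the place where the libraries differed most. CtIP_KO put 763 of 2555 junctions in Sε, or 29.9%, and XRCC4_KO put 462 of 3521 there, or 13.1%. Wildtype stood at 27.8%, beside CtIP_KO, and XRCC4_KO lay far below both. The odds ratio of XRCC4_KO over CtIP_KO was 0.355 (95% interval 0.311 to 0.404, adjusted exact p = 1.17e-56). Here and below, odds ratios come from two-sided Fisher's exact tests on junction counts with Benjamini-Hochberg adjustment within each kind of result, a call is an adjusted p under 0.05, and such a test compares 2 libraries and not 2 genotypes, with intervals that cover counting error only. Wildtype values are set beside them with no test.

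**Figure D1:**
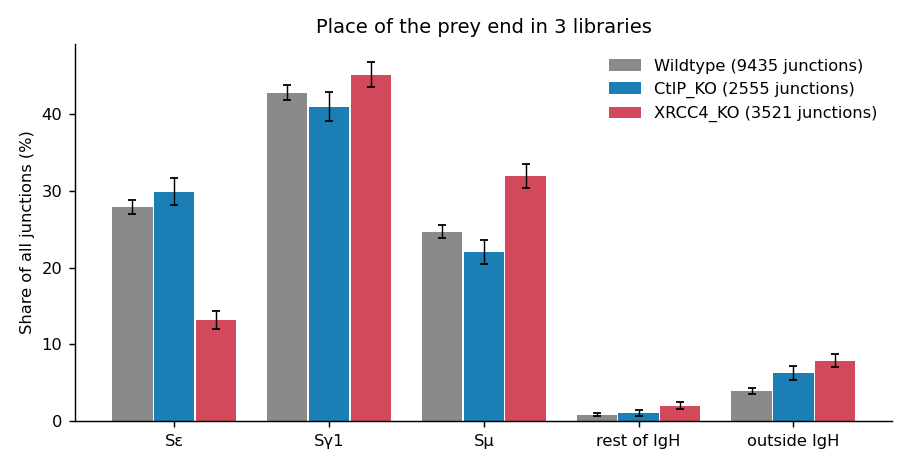
Share of all junctions (%) in each part of the genome where prey ends lay, in Wildtype (grey), CtIP_KO (blue) and XRCC4_KO (red), with 95% Wilson intervals as error bars. The Sε bar of XRCC4_KO stands at 13.1% against 29.9% in CtIP_KO, and its Sμ bar at 31.9% against 22.0%.

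The other places took the balance. Joins back into Sμ itself, which change no antibody class, made up 22.0% in CtIP_KO, 31.9% in XRCC4_KO and 24.7% in Wildtype, with an odds ratio of 1.66 (1.48 to 1.87, adjusted exact p = 2.40e-17). Sγ1 took 41.0% in CtIP_KO, 45.2% in XRCC4_KO and 42.8% in Wildtype. Its odds ratio of 1.19 was the nearest to 1 of the 5 places (1.07 to 1.32, adjusted exact p = 0.00210). Junctions elsewhere in IgH were 25 of 2555 against 69 of 3521, or 0.978% and 1.96%, and those outside IgH were 6.18% and 7.84%, both higher in XRCC4_KO (odds ratios 2.02 and 1.29, adjusted exact p = 0.00267 and 0.0134). Wildtype had 0.827% and 3.87%, so outside IgH both mutant libraries stood above it. All 5 places were called (100% of those tested), which is read against the fact that shares of 1 total cannot move alone. When each prey position was counted once, the Sγ1 share no longer passed (odds ratio 1.12, adjusted exact p = 0.0516).

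The balance between the IgE and IgG1 regions was also taken without the joins within Sμ. Of joins in Sε or Sγ1, Sε held 763 of 1810 in CtIP_KO, or 42.2%, and 462 of 2052 in XRCC4_KO, or 22.5%. Wildtype stood at 39.4%. The odds ratio was 0.399 (0.346 to 0.460, adjusted exact p = 3.13e-39). With each position counted once it was 0.480, and over deletional junctions alone 0.409. Reads with the 6 extra bases could be removed from the blunt joins, where Sε held 36.6% in CtIP_KO and 21.6% in XRCC4_KO (odds ratio 0.479, adjusted exact p = 1.00e-06). After removal these shares were 37.1% and 19.2%, with an odds ratio of 0.404 (0.287 to 0.565), so the gap was not narrower without those reads.

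The structure of the joins also set the libraries apart. Microhomology was present in 1281 of 2555 junctions of CtIP_KO, or 50.1%, and in 2367 of 3521 of XRCC4_KO, or 67.2%, while Wildtype had 49.9%. CtIP_KO and Wildtype lay together and XRCC4_KO above them, with an odds ratio of 2.04 (1.83 to 2.27, adjusted exact p = 6.44e-40). Blunt joins were 23.9% in CtIP_KO, 12.6% in XRCC4_KO and 22.2% in Wildtype, with an odds ratio of 0.460 (0.401 to 0.528). Joins with inserted bases were 26.0%, 20.2% and 27.9% in the same order, with an odds ratio of 0.719 (0.636 to 0.813).

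Each switch region showed the same direction. In Sγ1 microhomology rose from 50.9% in CtIP_KO to 70.1% in XRCC4_KO (odds ratio 2.26, 1.92 to 2.67) and blunt joins fell from 23.9% to 13.1%. In Sμ microhomology was 47.7% and 64.1% (1.95, 1.58 to 2.41) and blunt joins 19.6% and 10.5%. The Sε values were closer together, at 45.7% and 58.9% for microhomology (1.70, 1.34 to 2.16) and 29.1% and 20.6% for blunt joins (0.631, 0.474 to 0.836). Of the 12 comparisons over all junctions and the 3 regions, 11 were called (91.7%), and the exception was insertion in Sε, at 25.2% and 20.6% (0.770, 0.576 to 1.02, adjusted exact p = 0.0704). Woolf's chi-square test did not find that the odds ratios differed between the regions (adjusted p = 0.277 for each of microhomology, blunt joins and insertion). Without the reads with extra bases the Sε odds ratio of microhomology was 1.85 (1.41 to 2.43) and that of blunt joins 0.546 (0.389 to 0.758).

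**Figure D2:**
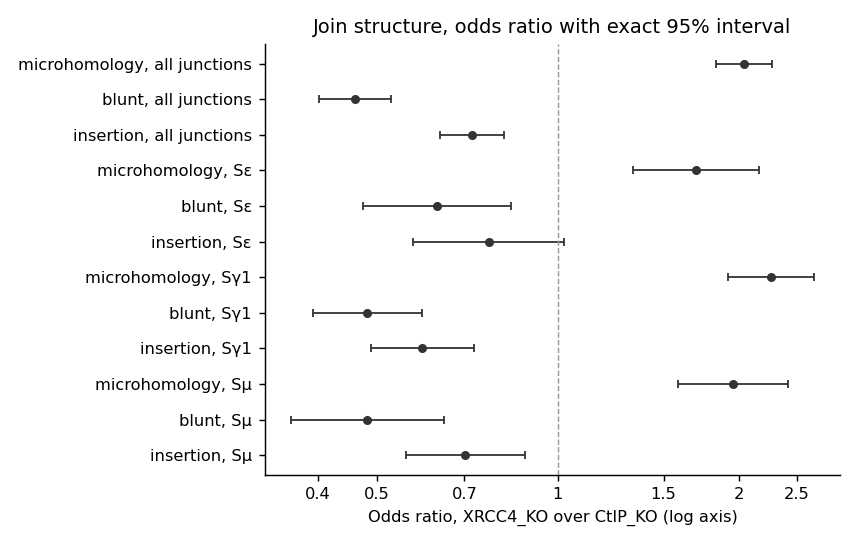
Odds ratio of XRCC4_KO over CtIP_KO (log axis) for microhomology, blunt joins and insertions, over all junctions and by switch region, as points with exact 95% intervals. Microhomology lies to the right of 1 in every scope, from 1.70 in Sε to 2.26 in Sγ1, and the interval of Sε insertion crosses 1.

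Orientation did not change this picture. Deletional joins are those on the minus strand. In Sε and Sγ1 this orientation removes the DNA between the breaks and lets the new class be expressed. In Sμ no class is changed, and for prey upstream of the bait the term names the strand only. Deletional joins were 93.4% of Sε junctions in CtIP_KO and 94.4% in XRCC4_KO, 90.7% and 89.3% in Sγ1, and 77.6% and 73.8% in Sμ. No region was called, and the odds ratios were 1.18 (0.706 to 2.00), 0.853 (0.649 to 1.12) and 0.812 (0.634 to 1.04). With each position counted once, no region was called either, but Sγ1 and Sμ came near the threshold. The odds ratios were then 1.22 in Sε, 0.730 in Sγ1 (0.539 to 0.983, adjusted exact p = 0.0561) and 0.725 in Sμ (0.553 to 0.947, adjusted exact p = 0.0506). Among the inversional joins of Sγ1, microhomology was present in 49 of 97 in CtIP_KO and 132 of 170 in XRCC4_KO, or 50.5% and 77.6%, with an odds ratio of 3.39 (1.92 to 6.03), and among the deletional ones in 50.9% and 69.2% (2.17, 1.82 to 2.58). Over the 15 comparisons of microhomology and blunt joins by region and orientation, with insertion outside IgH, 11 were called (73.3%). Both classes of Sε inversions were not, on 50 and 26 joins.

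The bins of overlap and insertion length show where the structures differed. Over these bins, 17 of 43 were called (39.5%), of which 7 were higher and 10 lower in XRCC4_KO. In Sγ1 every overlap bin from 2 to 9 bp was higher in XRCC4_KO. The 2 to 3 bp bin held 22.6% in CtIP_KO and 33.0% in XRCC4_KO, the 4 to 5 bp bin 5.92% and 13.8%, the 6 to 7 bp bin 1.62% and 6.10%, and the 8 to 9 bp bin 0.764% and 2.89%. The odds ratios of these bins were 1.68, 2.55, 3.94 and 3.87, higher for the longer overlaps. Overlaps of 10 to 14 bp were 8 in each library and were not called. In Sμ the rise was called for 2 to 3 bp, 21.5% against 33.1%, and 4 to 5 bp, 5.87% against 17.0%.

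Overlap of a single base went opposite ways. In Sε it made up 16.8% of joins in CtIP_KO and 23.8% in XRCC4_KO, with an odds ratio of 1.55 (1.15 to 2.08, adjusted exact p = 0.00825), and 20.8% in Wildtype. In Sγ1 it was 19.1% and 13.8% (0.680, 0.548 to 0.844, adjusted exact p = 0.00118), and in Sμ 17.4% and 10.2% (0.540, 0.399 to 0.731, adjusted exact p = 0.000229). XRCC4_KO was therefore the higher library in Sε and the lower one in Sγ1 and Sμ, and Woolf's chi-square test found the 3 odds ratios to differ (adjusted p = 1.24e-06, adjusted over the 4 tests of this kind that were added with the values known). For overlaps of 2 to 3 bp the same chi-square test did not pass (adjusted p = 0.0690). In the per-junction Sε table the odds ratio for 1 bp was 1.53 (1.09 to 2.16, adjusted exact p = 0.0239) without the reads with extra bases.

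**Figure D3:**
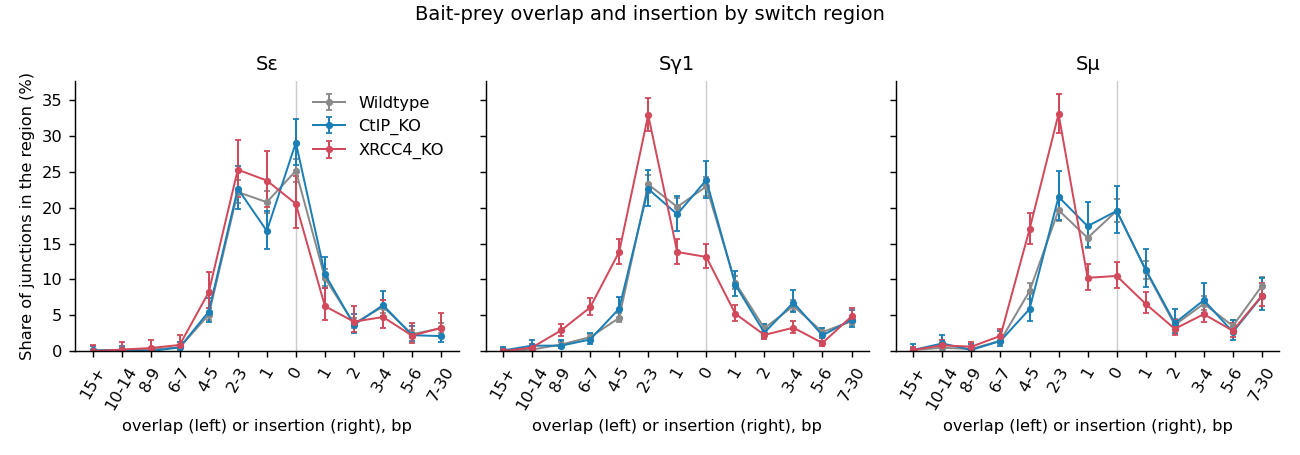
Share of junctions in each region (%) by the length of overlap, to the left of the grey line at 0, or of insertion, to its right, in bp, with 95% Wilson intervals. XRCC4_KO (red) lies above CtIP_KO (blue) from 2 to 9 bp of overlap in Sγ1, and at 1 bp it lies above it in Sε, 23.8% against 16.8%, and below it in the other regions.

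Overlaps of 4 or more bp, among those of 1 to 15 bp, were counted as long microhomology. In Sγ1 it was 95 of 532 in CtIP_KO, or 17.9%, and 371 of 1115 in XRCC4_KO, or 33.3%, with 15.1% in Wildtype (odds ratio 2.29, 1.77 to 2.99, adjusted exact p = 6.24e-11). In Sμ it was 18.0% and 32.2%, with 23.0% in Wildtype (2.16, 1.51 to 3.14). In Sμ the difference was gone at 6 or more bp, 5.62% against 5.57% (0.991, 0.525 to 1.97). In Sε it was 47 of 348 and 45 of 272, or 13.5% and 16.5%, which was not called (1.27, 0.794 to 2.03, adjusted exact p = 0.307). The interval of Sε overlaps those of the other regions, and Woolf's chi-square test over the 3 regions gave an adjusted p of 0.0949. Set over all junctions of the region, long microhomology was called in Sε too (6.16% and 9.74%, odds ratio 1.64, adjusted exact p = 0.0251). In the per-junction table that call was lost with each bait end and prey position counted once (1.56, adjusted exact p = 0.0508).

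Overlaps of 6 to 9 bp were counted apart because they stood out in Sγ1. They were 25 of 1047 Sγ1 joins in CtIP_KO, or 2.39%, 143 of 1590 in XRCC4_KO, or 8.99%, and 116 of 4038 in Wildtype, or 2.87%. XRCC4_KO was above both others, with an odds ratio of 4.04 (2.60 to 6.50, adjusted exact p = 2.97e-12) in a count added with the values known. In Sε they were 4 of 763 and 6 of 462 joins, and in Sμ 9 of 562 and 31 of 1124, with no call in either. Woolf's chi-square test did not show the odds ratios of the 3 regions to differ (adjusted p = 0.125). The per-junction Sγ1 table of XRCC4_KO was not used here, so the sequences are known for CtIP_KO alone. There 8 of the 25 overlaps were AGCCAG, found in the bait from base 48, and 4 were GGCAGCCA, found from base 55. A read of each overlap is shown, picked after the values were seen. Both reads led into the same stretch of Sγ1, with prey ends at 114573410 and 114573413 on the minus strand of chromosome 12. The prey ends of the other joins with these overlaps were not compared. The 6 bp read differs from the bait consensus just before its overlap. Capitals again mark the overlap.
CtIP_KO, Sγ1, 6 bp: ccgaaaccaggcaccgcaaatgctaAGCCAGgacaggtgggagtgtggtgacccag
CtIP_KO, Sγ1, 8 bp: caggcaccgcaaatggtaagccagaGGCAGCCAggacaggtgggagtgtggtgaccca

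The per-junction Sε tables give the overlap base by base. Overlaps of 1 to 15 bp had a mean of 2.18 bp (SD 1.29, n = 347 joins) in CtIP_KO and 2.22 bp (SD 1.48, n = 272) in XRCC4_KO, and the median was 2 bp in both. In Sε XRCC4_KO had a larger share of joins with overlap, 58.9% against 45.7%, and the mean lengths lay close together. The difference in mean length was not tested. Microhomology was more frequent in XRCC4_KO in the downstream part of Sε, 44.4% against 58.7% (odds ratio 1.78), and in the upstream part, 47.0% against 59.0% (1.62). It was also more frequent with short baits, 47.3% against 58.8% (1.59), and with long ones, 43.8% against 58.9% (1.84). All 4 of these passed, with adjusted exact p between 0.00245 and 0.00515, and without the reads with extra bases their odds ratios were 1.99, 1.72, 1.80 and 1.82.

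No difference in the letters of the long Sε overlaps was detected. Among overlaps of 4 to 15 bp, GCTG as a whole overlap was found in 12 of 47 in CtIP_KO and 10 of 45 in XRCC4_KO. GCTG occurs in the bait first from base 65 and again farther on, and which place each overlap used was not tested. AGCT was held by 9 of 47 overlaps in CtIP_KO and 9 of 45 in XRCC4_KO, or 19.1% and 20.0% (odds ratio 1.06, 0.329 to 3.38). Neither GAGC, a frequent unit of switch repeats, nor GGG was in any overlap, but GAGC does not occur in the bait and GGG does so only past the AflII site, so these counts compare nothing. Without the reads with extra bases AGCT was held by 8 of 38 and 9 of 35 overlaps (1.29, 0.380 to 4.48). G made up 36.1% and 36.4% of the overlapping bases and C 28.3% and 28.1%.

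Among joins with inserted bases, those of 1 bp were a smaller part in XRCC4_KO. Insertions of 2 or more bp were 62.3% of all insertions in CtIP_KO, 72.5% in XRCC4_KO and 64.5% in Wildtype, with an odds ratio of 1.59 (1.26 to 2.02, adjusted exact p = 0.000269). No single switch region was called, at 57.3% and 69.5% in Sε, 63.3% and 68.8% in Sγ1, and 65.2% and 74.1% in Sμ. Over all junctions, insertions of 2 or more bp were 16.2% in CtIP_KO and 14.6% in XRCC4_KO (0.886, 0.768 to 1.02, adjusted exact p = 0.193), so the rise is one among insertions only, and in Sγ1 they were lower in XRCC4_KO, 16.0% against 11.5% (0.685, 0.543 to 0.865). Insertion of 1 bp fell in all 3 regions, from 10.7% to 6.28% in Sε, from 9.26% to 5.22% in Sγ1 and from 11.4% to 6.58% in Sμ, and insertion of 3 to 4 bp fell in Sγ1, from 6.78% to 3.27%. In Sε the mean insertion was 3.45 bp (SD 4.44, n = 192) in CtIP_KO and 3.88 bp (SD 3.98, n = 95) in XRCC4_KO, with a median of 2 bp in both.

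Prey positions lay outside the core more often in XRCC4_KO at Sμ and Sγ1. For each region the core holds the middle 95% of the deletional junctions of Wildtype, which fixes its own share beyond each border. In mm9 the cores run from 114511918 to 114515051 for Sε, from 114570376 to 114576301 for Sγ1 and from 114662267 to 114665847 for Sμ, all on chromosome 12. Lower coordinates are downstream, towards the constant genes that follow. Downstream of the Sμ core lay 12 of 436 deletional junctions of CtIP_KO, or 2.75%, and 132 of 829 of XRCC4_KO, or 15.9%. CtIP_KO stayed near the share fixed for Wildtype and XRCC4_KO went beyond it, with an odds ratio of 6.68 (3.64 to 13.4, adjusted exact p = 1.05e-13).

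Sγ1 showed a difference on the same side. Downstream of its core lay 26 of 950 deletional junctions of CtIP_KO and 105 of 1420 of XRCC4_KO, or 2.74% and 7.39% (odds ratio 2.84, 1.81 to 4.58, adjusted exact p = 1.57e-06). Upstream of the Sγ1 core the shares were 3.89% and 5.63% (1.47, 0.976 to 2.26, adjusted exact p = 0.0984), and with a core of the central 90% this side was called too (1.79, adjusted exact p = 0.000782). Downstream in Sε the shares were 2.95% and 3.21% (1.09, 0.508 to 2.28, adjusted exact p = 0.860). Upstream, the Sμ share was 13 of 436 against 9 of 829, or 2.98% and 1.09%, lower in XRCC4_KO (0.357, 0.134 to 0.912, adjusted exact p = 0.0431). That call rests on few junctions and was lost when each position was counted once (adjusted exact p = 0.0647). The upstream Sμ border lies upstream of the bait, which reads towards lower coordinates. For junctions beyond it, deletional therefore names the strand only and not a loss of the DNA between bait and prey.

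Inversional junctions were set against the same borders. In Sμ 1 of 126 lay outside the core in CtIP_KO and 28 of 295 in XRCC4_KO, or 0.794% and 9.49%, with 1.69% in Wildtype (odds ratio 13.1, 2.11 to 540.2, adjusted exact p = 0.00155). In Sγ1 the shares were 15.5% and 27.6%, with 14.8% in Wildtype (2.08, 1.06 to 4.29, adjusted exact p = 0.0366). Of those in Sγ1, 12 of 15 in CtIP_KO and 42 of 47 in XRCC4_KO were upstream of the core, and of the 28 in Sμ of XRCC4_KO 15 were downstream and 13 upstream. The Sγ1 call was lost on distinct positions (odds ratio 1.91, adjusted exact p = 0.0892).

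The centres of the deletional junctions in Sμ and Sε moved little. Deletional Sμ junctions had their median at 114663389 in CtIP_KO (95% interval 114663362 to 114663416) and 114663340 in XRCC4_KO (114663294 to 114663372). The Sε medians were 114513710 (114513603 to 114513797) and 114513849 (114513729 to 114513987). In both regions the intervals overlap. Inversional Sμ junctions had their median at 114663627.5 in CtIP_KO (114663462 to 114663968) and 114663996 in XRCC4_KO (114663748 to 114664272), and these intervals overlap too. Wildtype had 114663358.5 (114663318 to 114663507), an interval apart from that of XRCC4_KO. The middle 50% of deletional Sμ junctions spanned 999 bp in CtIP_KO, 1156 bp in XRCC4_KO and 876 bp in Wildtype.

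**Figure D4:**
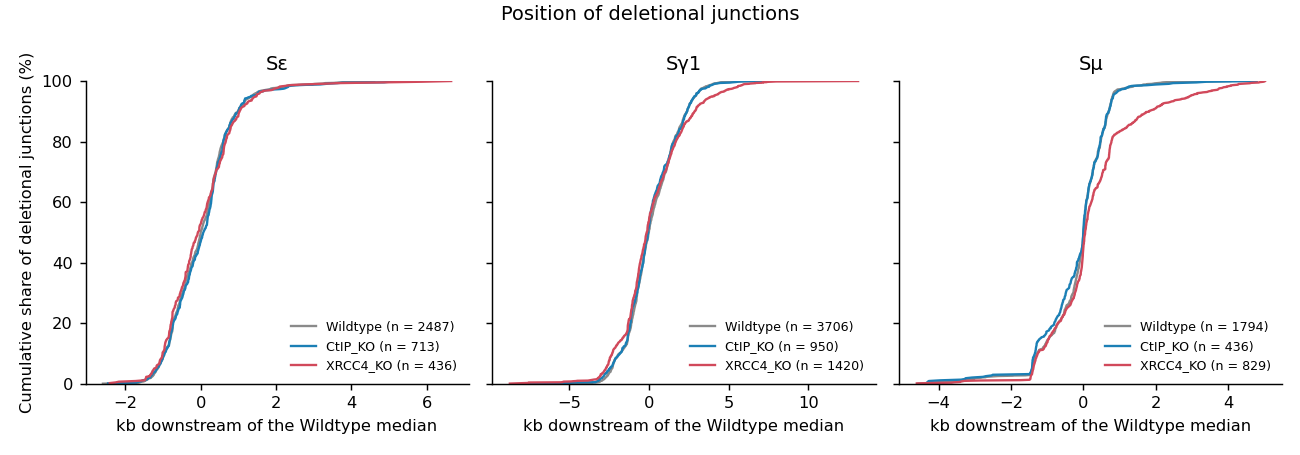
Cumulative share of deletional junctions (%) against the distance downstream of the Wildtype median (kb) in Sε, Sγ1 and Sμ, for Wildtype (grey), CtIP_KO (blue) and XRCC4_KO (red). The curves lie together in Sε, and in Sμ the red curve parts from the others downstream, where 15.9% of XRCC4_KO junctions lie beyond the core against 2.75% in CtIP_KO.

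Windows of 500 bp were tested over the 3 regions. Of 61 windows with 10 or more junctions, 2 were called (3.28%), and both were deletional and just downstream of the Sμ core. The window chr12:114661600-114662099 held 2 of 436 junctions in CtIP_KO and 35 of 829 in XRCC4_KO (odds ratio 9.56, adjusted exact p = 0.00208), and chr12:114661100-114661599 held 1 and 25 (13.5, adjusted exact p = 0.00852). No window in Sε or Sγ1 was called at this width. The calls depend on the width, since over all 3 regions 0 of 89 windows of 250 bp passed and 7 of 37 windows of 1000 bp did, 6 of them higher in XRCC4_KO.

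The Sμ tail was then followed past the end of the region. Taking all deletional junctions from the upstream end of Sμ to the border of Sγ1, 12 of 436 in CtIP_KO, or 2.75%, lay downstream of the Sμ core, against 157 of 854 in XRCC4_KO, or 18.4%, and 2.67% in Wildtype. The odds ratio was 7.95 (4.36 to 15.9, adjusted exact p = 4.48e-18). All 12 of CtIP_KO and 132 of those of XRCC4_KO lay inside the Sμ region. They are the junctions already tested against the core, so this is not a separate test of them. Of 7 bands of distance, 3 were called (42.9%), those up to 4000 bp. These lie inside the Sμ region, which ends downstream at 114658100, and no band beyond 4000 bp was called. Within the first 1000 bp lay 1.61% and 7.61%, from 1000 to 2000 bp 0.688% and 3.63%, and from 2000 to 4000 bp 0.459% and 4.22%. Farther than 4000 bp CtIP_KO had no junction, which at 3 counts of the total allows a share of up to 0.688%, and XRCC4_KO had 25.

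**Figure D5:**
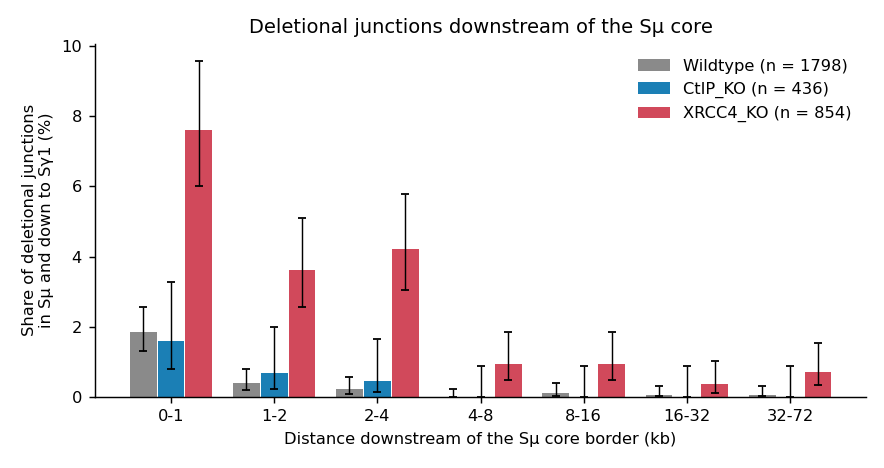
Share of the deletional junctions in Sμ and down to Sγ1 (%) in bands of distance downstream of the Sμ core border (kb, bands of unequal width), with 95% Wilson intervals. XRCC4_KO (red) is above CtIP_KO (blue) in each band, at 7.61% against 1.61% in the first, and CtIP_KO has no junction beyond 4 kb.

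Junctions beyond the Sμ region, between it and Sγ1, were also set over all junctions of a library, with both strands. Between Sγ1 and Sμ were 3 of all 2555 junctions of CtIP_KO, all on the plus strand, and 30 of 3521 of XRCC4_KO, of which 25 were on the minus strand, the deletional one, and are counted in the tail above. Wildtype had 5 of 9435. The odds ratio was 7.31 (2.27 to 37.5, adjusted exact p = 0.000211), and 3 of the 30 reads carried the 6 extra bases. The 30 junctions lay at 28 different positions. By the gene order given above, Ighg3 lies in this stretch, and whether any of these joins are switch joins to it was not tested. Between Sε and Sγ1, a stretch that also holds further switch regions, there were 8 and 21 junctions (1.91, 0.811 to 4.99, adjusted exact p = 0.266).

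Some junctions shared their prey position with another of the same library. Distinct positions made up 81.2% of the deletional Sε junctions in CtIP_KO and 91.7% in XRCC4_KO, 82.2% and 75.6% in Sγ1, and 83.7% and 74.2% in Sμ. These shares depend on how many junctions were drawn, and XRCC4_KO had fewer in Sε and more in Sγ1 and Sμ. Positions with 3 or more deletional junctions in Sγ1 were 31 in CtIP_KO and 73 in XRCC4_KO, and the most used one held 9, in Sγ1 of XRCC4_KO, at 114573428.

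On the bait side the libraries lay close together. The bait of blunt joins had a median of 62 bp in CtIP_KO (60 to 64, n = 592), 61 bp in XRCC4_KO (57 to 62, n = 428) and 64 bp in Wildtype. Baits of 64 bp or less, the Wildtype median, were 57.3% and 59.3% of blunt joins (odds ratio 1.09, 0.840 to 1.41, adjusted exact p = 0.593) and 56.7% and 59.5% of all Sε joins (1.12, 0.882 to 1.44). None of the 5 shares was called, with or without the reads with extra bases. With the Wildtype lower quartile of 50 bp in place of the median, blunt joins to Sγ1 differed, with 26.0% at or below it in CtIP_KO and 39.5% in XRCC4_KO (1.85, 1.21 to 2.84, adjusted exact p = 0.0149).

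Bait ends near the AGCT motifs did not differ detectably between the libraries. Within 2 bp of the motif at bait base 64 ended 13.9% of blunt baits in CtIP_KO and 14.3% in XRCC4_KO (odds ratio 1.03, 0.710 to 1.5), and near the motif at base 85 ended 8.45% and 6.07% (0.701, 0.412 to 1.17). The most frequent single end of blunt baits was at base 64 in CtIP_KO, with 21 of 592, and at base 45 in XRCC4_KO, with 19 of 428. Base 64 came next in XRCC4_KO, with 16 of 428, so its share was close in both libraries, 3.55% and 3.74%. Few blunt baits ran through the AflII site, 2.36% and 2.10%.

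Outside IgH, no difference in microhomology was detected. The shares were 116 of 158 in CtIP_KO, or 73.4%, and 206 of 276 in XRCC4_KO, or 74.6%, with 62.7% in Wildtype (odds ratio 1.07, 0.663 to 1.70, adjusted exact p = 0.820). Blunt joins were fewer in XRCC4_KO, 13.9% against 6.88% (0.458, 0.226 to 0.921, adjusted exact p = 0.0369). That call depends on the set of tests, since the same counts did not pass among the bins of overlap and insertion length (adjusted exact p = 0.0608). Among joins with microhomology, 113 in CtIP_KO and 205 in XRCC4_KO, overlap had a median of 3 bp against 4 bp. They were counted within the 154 and 268 joins that have a position.

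Chromosome 12, which holds IgH, took 18 of 154 of these joins in CtIP_KO, or 11.7%, and 59 of 268 in XRCC4_KO, or 22.0%, with 22.8% in Wildtype. XRCC4_KO was near Wildtype and CtIP_KO below, with an odds ratio of 2.13 (1.18 to 4.01, adjusted exact p = 0.0217). Without the reads with extra bases the shares were 12.5% and 22.1%, and the difference did not pass (1.99, 1.09 to 3.77, adjusted exact p = 0.0532). Farther than 5 Mb from the switch regions the chromosome 12 shares were 8.44% and 15.3%, with 11.6% in Wildtype between them (1.96, 0.986 to 4.12, adjusted exact p = 0.0815).

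Few sites outside IgH recurred. CtIP_KO had distinct junctions in 133 bins of 1 Mb and XRCC4_KO in 214, of which 25 were common, 18.8% and 11.7% of each. The bin from 132 to 133 Mb of mm9 chromosome 7 had the most, 6 in CtIP_KO, 10 in XRCC4_KO and 13 in Wildtype, which is 3.97% and 3.82% of the distinct junctions of the mutant libraries. Of the 12 bins with 3 or more distinct junctions in either library, none was called by Fisher's exact test (0%), and 0 had an unadjusted p under 0.05. Between 98 and 99 Mb of chromosome 2 were 4 and 1, and in chromosome 12 bins 70 to 71 Mb and 115 to 116 Mb were 1 and 6, and 1 and 7. Genes are not named at these sites because the gene table at hand is for another build.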

How the data were processed

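Per the labels' protocols, a primer in Sμ started linear amplification, which was followed by nested PCR and sequencing on a MiSeq. The submitters' processing notes name Bowtie2 and the mm9 build. Read depth and the steps that called and deduplicated junctions are not stated in any source at hand. The authors' deposited summaries hold junction counts by region, strand and overlap bin, and the deposited position lists and per-junction tables hold positions, alignment ends and reads. The files were used as deposited, with no further normalization. Emptied lines (4 of 158 and 8 of 276 outside IgH) were counted but have no position. Overlap is the prey's first aligned read base minus the bait's last, minus 1.

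Groups come from sample titles. Shares have 95% Wilson intervals and medians have exact binomial order-statistic intervals. Libraries were compared by two-sided Fisher's exact test with Benjamini-Hochberg adjustment. The code was run on simulated counts of larger libraries than these, so that run does not give the sensitivity reached here. No test has replicates. Bait lengths use reads whose bait alignment began within 10 bp of the usual start at the primer. The reads printed are, per library, the 2 longest Sε overlaps up to 15 bp and the blunt Sε join nearest the median, and 2 frequent Sγ1 overlaps added after the values were seen. Sites outside IgH are every 1 Mb bin with 3 or more distinct junctions in either library, and the windows named are those called. Members, motifs and lists were chosen with earlier results of these data known. Alternatives changed denominators, repeats, borders, cut-offs and the reads with 6 extra bases. The growth protocol gives 129Sv and the strain label BL6. Tests were run with scipy 1.17.1, tables were handled with pandas 2.3.3 and numpy 2.4.6 under Python 3.11.15, and plots were drawn with matplotlib 3.10.9.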

Additional observations from a re-analysis of the deposited data

How the results depend on the processing

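Each genotype is 1 library, so no library could be left out, and no paired analysis was possible because each genotype has 1 library and no test has replicates. Each pair of a result and an alternative was counted, and pairs not called in either setting count as kept. Over the alternatives listed at the outset 100 pairs were kept, in direction and side of the threshold or, for windows, in number called. Of the others 5 lost a call, 3 gained one, 4 turned direction and 2 were changed counts of windows. Over those added later 32 were kept, 2 lost a call, 2 gained one and 5 turned. The differences in Sε share, in Sε against Sγ1, in microhomology by region and in the downstream Sμ tail were kept in every alternative run on them. Removal of the reads with 6 extra bases was not run for the Sε share of all junctions or the downstream Sμ tail. Nor was it run for Sε against Sγ1 over all joins, or for microhomology in Sγ1 and Sμ. With each position counted once, odds ratios of XRCC4_KO over CtIP_KO that no longer passed were 1.12 for the Sγ1 share, 0.403 for the upstream Sμ tail, 1.91 for Sγ1 inversions outside the core and 1.56 for Sε overlaps of 4 or more bp, and the uncalled downstream Sε tail turned to 0.964. With borders 1 kb further out, the downstream Sε tail was 0.908 and the upstream Sμ tail 0.418, neither called. With a core of the central 90%, the upstream Sγ1 tail was called at 1.79. Windows of 250 bp gave 0 calls of 89 and of 1000 bp 7 of 37, 6 higher and 1 lower in XRCC4_KO, against 2 of 61. Long microhomology in Sε was 0.857 from 2 bp and 1.64, called, over all junctions, and in Sμ it was 0.991 from 6 bp, not called. The listed limit of 4 bp for long insertions was not run, because a deposited bin joins 3 and 4 bp. From 5 bp, added after seeing the data, insertions were called in Sγ1 (1.57) and Sμ (1.55). Set over all junctions, also added later, insertions of 2 or more bp turned to 0.886 in all, 0.989 in Sε, 0.685 in Sγ1, called, and 0.856 in Sμ, since 1 bp insertions make up part of the first denominator. The lower quartile of bait length gave 1.85 in Sγ1, called. Without the reads with 6 extra bases, also added later, odds ratios no longer called were 1.99 for chromosome 12 and 1.31, from 1.32, for the part of all blunt joins that lie in Sγ1, and the part of all blunt joins that lie outside IgH, not called, turned from 0.941 to 1.04. Where a call was lost or gained, the cause was not tested. Depth limits the Sε inversions (50 and 26 joins) and the single sites outside IgH, where differences in the counts seen were not detectable.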
